A study of Mus musculus with 80 samples.

Results

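The liver of UCP1 KO mice was compared with the liver of WT mice by RNA sequencing. Of the 80 libraries of the series, the 10 labelled liver and either UCP1 KO (5 libraries) or WT (5 libraries) entered the comparison. All mice were male and homozygous at the loci concerned, on a C57BL/6J background, and had been kept from birth at 30 °C. At 10 to 12 weeks of age both groups were moved to room temperature and from chow to a high-fat diet for 3 weeks, and food was withdrawn for a few hours before tissue collection. The groups therefore shared diet, temperature and sex and differed by the UCP1 knockout, which was constitutive. Another 10 liver libraries, 5 of FGF21 KO and 5 of UCP1/FGF21 double knockout (dKO) mice, were treated in the same way and were fitted in the same model; the labels of these libraries and the design text write UCP1/FGF12 double KO, while the title and the study name FGF21. The comparison of dKO with FGF21 KO shares no library with the comparison of UCP1 KO with WT, and was used to show how the same genes behaved when UCP1 was lost without FGF21. The study describes 5 mice per genotype, but the labels do not say which libraries of different tissues came from one mouse.

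UCP1 is the proton carrier of brown fat mitochondria that turns the respiratory gradient into heat, and hepatocytes do not normally make it. The liver supplies the fuels, lipoproteins and most of the plasma proteins that other tissues use, and it answers inflammatory cytokines with the acute-phase response, in which serum amyloid A, haptoglobin, hemopexin and orosomucoid are secreted in large amounts under the control of C/EBP, STAT3 and NF-kB. FGF21 is a hormone made in the liver, among other organs, that signals through FGF receptors together with the coreceptor beta-klotho.

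The libraries held 32089452 to 41371512 reads on genes in WT against 29508942 to 30627486 in UCP1 KO, so the UCP1 KO libraries were all shallower than those of WT (p = 0.00794 by an exact permutation test, two-sided, the lowest value 5 libraries against 5 can give). Levels are given as CPM, counts scaled to library size with TMM factors, and differences as log2 fold changes of UCP1 KO over WT from edgeR. Albumin, which defines hepatocytes, was at 64061 to 70144 CPM in WT and at 45874 to 79775 CPM in UCP1 KO, and 0 of 10 hepatocyte markers passed an adjusted p of 0.05 by edgeR, with 0 at an unadjusted p under 0.05 and 0 called by DESeq2. Ucp1 itself (chromosome 8, 83290348 to 83298456) was counted at 0.238 to 0.922 CPM in WT and at 0.801 to 1.54 CPM in UCP1 KO (log2 fold change 1.13, standard error 0.45, adjusted p = 0.367), so the targeted transcript did not check the labels in this tissue. Fgf21 was at 1.37, 1.58, 1.45, 2.63 and 1.75 CPM in WT and at 1.84, 2.91, 0.963, 2.07 and 2.80 CPM in UCP1 KO. The groups overlapped throughout (log2 fold change 0.26, standard error 0.30, adjusted p = 0.803), and none of the 5 receptor and coreceptor genes passed the test (2 had an unadjusted p under 0.05, and DESeq2 called 0). Klb, which encodes beta-klotho, was at 21.9 to 44.4 CPM in WT and 18.3 to 34.4 CPM in UCP1 KO (log2 fold change -0.51, adjusted p = 0.301).

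Of 14407 genes tested, 10 (0.0694%) were called at an adjusted p below the study's limit of 0.01, with 4 higher (0.0278%) and 6 lower (0.0416%) in UCP1 KO. The 10 genes fall into 3 kinds. Genes within 10 Mb of Ucp1 on chromosome 8 gave 6 of the 10 calls, skeletal muscle genes gave 2, and 2 genes belonged to neither kind, namely Saa3, an acute-phase gene, and Ccdc120, a coiled-coil protein gene on chromosome X. At the wider adjusted p of 0.05, 89 genes passed (0.618%), 39 higher (0.271%) and 50 lower (0.347%). An unadjusted p under 0.05 was found for 10.2% of all genes, 5.80% higher and 4.40% lower. Of the 89 genes at an adjusted p under 0.05, 35 were skeletal muscle genes, 11 lay near Ucp1 and 43 were neither, and of the 43 there were 33 higher and 10 lower. DESeq2, the tool named in the study's methods, called 112 genes (0.777%) at 0.01, of which 33 were skeletal muscle genes, 11 lay near Ucp1 and 68 were neither. In 298 genes (2.07%) the 5 libraries of one group all lay beyond the 5 of the other, 200 of them higher (1.39%) and 98 lower (0.68%) in UCP1 KO. The count of called genes moved with single libraries, from 1 without WT replicate 4 or without UCP1 KO replicate 2 to 46 without WT replicate 5.

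**Figure D1:**
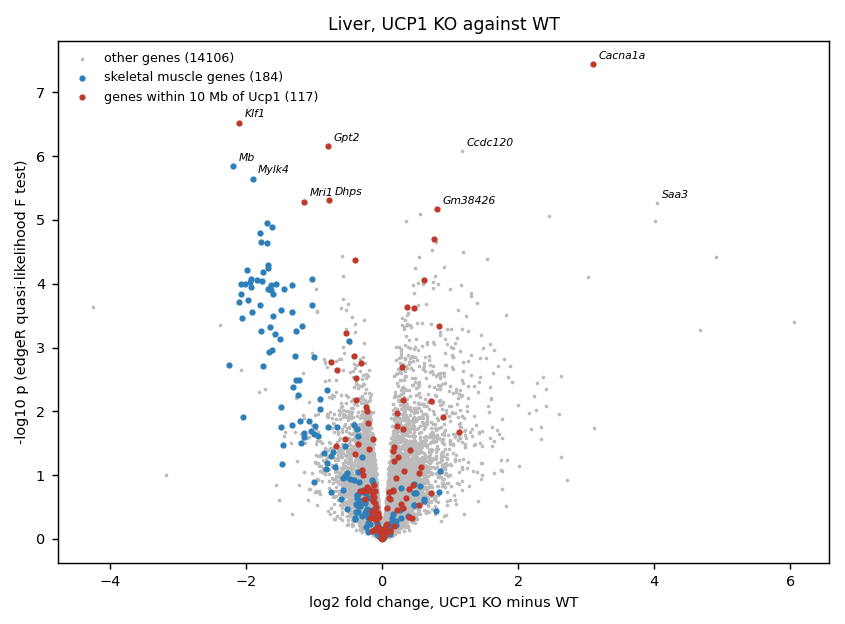
Liver of UCP1 KO against WT, with 1 point per gene tested. The horizontal axis is the log2 fold change and the vertical axis -log10 of the unadjusted edgeR p, with genes within 10 Mb of Ucp1 in red, skeletal muscle genes in blue, all other genes in grey and the 10 genes called at an adjusted p under 0.01 named. The skeletal muscle genes with small p all lie on the lower side, and the genes near Ucp1 lie on both sides.

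The acute-phase response was the gene group with the highest median difference. Of 21 tested acute-phase and metallothionein genes, 5 were higher at an adjusted p under 0.05 (Saa3, Orm2, Hpx, Lcn2 and Hp), none was lower, and the median log2 fold change was 0.97, against -0.00035 over all genes tested. DESeq2 called 8 of the 21, all higher. UCP1 KO replicates 1 to 4 were above all WT libraries for 10 of the 21 (2.3% of all genes), and UCP1 KO replicate 5 was the lowest of its group for 13 (27.8% of all genes).

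Saa3, a serum amyloid A gene induced by inflammation in liver and macrophages, was at 3.41, 5.24, 2.05, 2.28 and 5.10 CPM in WT and at 20.3, 175, 37.0, 56.0 and 6.48 CPM in UCP1 KO. The groups did not overlap, with UCP1 KO replicate 5 just above the highest WT library (log2 fold change 4.03, standard error 0.66, adjusted p = 0.00869), and the call was lost in 15 of the 20 fits that left out 1 library. Lcn2, which encodes the siderophore-binding protein lipocalin-2, was at 4.86, 7.27, 2.65, 2.63 and 6.36 CPM in WT and at 209, 187, 201, 110 and 5.17 CPM in UCP1 KO. Here 4 UCP1 KO libraries stood far above all WT libraries and replicate 5 lay within them (log2 fold change 4.91, standard error 0.93, adjusted p = 0.0213). Orm2, one of the orosomucoid genes, had the same pattern, with 3.09 to 8.94 CPM in WT and 150, 150, 96.3, 40.3 and 8.15 CPM in UCP1 KO (log2 fold change 4.01, standard error 0.69, adjusted p = 0.0106). For these 3 genes the fold was therefore set by 4 libraries.

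The carriers of free haem and haemoglobin were already abundant in WT and differed less. Hpx, hemopexin, was at 3566, 3715, 3559, 3812 and 4235 CPM in WT and at 9305, 11445, 7631, 10181 and 4626 CPM in UCP1 KO (log2 fold change 1.19, standard error 0.22, adjusted p = 0.02). Hp, haptoglobin, was at 1780, 2029, 1752, 2096 and 2457 CPM in WT and at 6069, 6068, 4603, 5734 and 2586 CPM in UCP1 KO (log2 fold change 1.31, standard error 0.28, adjusted p = 0.0329). Neither gene overlapped between the groups, although replicate 5 of UCP1 KO was again the lowest of its group and close to WT. Hp lies on chromosome 8 at 109575128 to 109579172, outside the window around Ucp1.

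The serum amyloid genes Saa1 and Saa2 had folds of similar or larger size and did not pass the test. Saa1 was at 111, 107, 59.6, 84.9 and 232 CPM in WT and at 2964, 5116, 3619, 3263 and 123 CPM in UCP1 KO (log2 fold change 4.66, standard error 1.13, adjusted p = 0.0637). Saa2 was at 11.4 to 79.7 CPM in WT and at 1574, 3603, 2349, 1911 and 24.6 CPM in UCP1 KO (log2 fold change 6.06, standard error 1.43, adjusted p = 0.0592). In both, replicate 5 lay within the WT range, and DESeq2 called both (adjusted p = 0.00198 for Saa1 and 6.56e-05 for Saa2). Saa1 and Saa2, and likewise the Orm genes, are near-identical copies, so how reads were divided among them is uncertain.

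Other members were smaller in difference or flat. Orm1 had 609 to 849 CPM in WT and 747 to 1770 CPM in UCP1 KO (log2 fold change 0.95, adjusted p = 0.0895), and Apcs, serum amyloid P, had 62.8 to 84.5 CPM in WT and 80.8 to 221 CPM in UCP1 KO (log2 fold change 1.05, adjusted p = 0.112). The fibrinogen chains Fga and Fgg and the C-reactive protein gene Crp, which is no major acute-phase protein in mice, were at log2 fold changes of 0.21, 0.15 and 0.05. Hamp, which encodes the iron hormone hepcidin, was at -0.67 (adjusted p = 0.585), and the metallothionein genes Mt1 and Mt2 were at 0.93 and 1.2 with standard errors of 1.16 and 1.43. For Fga, Fgg, Crp, Mt1 and Mt2 the difference was close to its standard error or smaller.

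High acute-phase levels also occurred in single libraries of the other genotypes. Over the 21 genes, dKO replicate 4 was the highest of the 5 dKO libraries for 20 and FGF21 KO replicate 5 the highest of its group for 20, against 19.5% and 25.3% of all genes tested. Saa1 reached 3056 CPM in dKO replicate 4 against 38.5 to 366 CPM in the other dKO libraries, and 872 CPM in FGF21 KO replicate 5 against 96.9 to 146 CPM in the others. Between dKO and FGF21 KO the median log2 fold change of the list was 0.02, and Saa3 was at 0.42 (standard error 0.62), Lcn2 at 1.62 (0.82) and Hp at 0.11 (0.28). The difference between both backgrounds was tested as an interaction and did not pass for any of these genes (adjusted p = 0.304 for Saa3, 0.486 for Orm2, 0.843 for Lcn2, 0.813 for Hpx and 0.71 for Hp). The number of list members above WT at 0.05 was 7 without UCP1 KO replicate 5 and 9 without dKO replicate 4, which enters only through the shared estimate of spread. It was 2 without WT replicate 1 or 3, 1 without WT replicate 4 and 3 without UCP1 KO replicate 4.

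**Figure D2:**
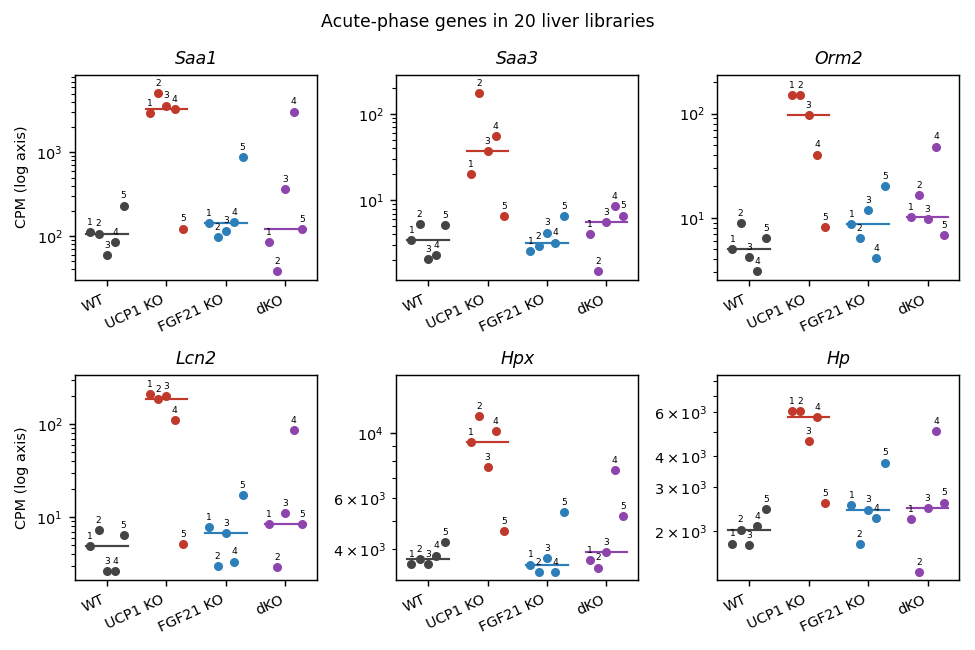
CPM of 6 acute-phase genes in the 20 liver libraries, on log axes, by genotype. Each point is 1 library with its replicate number, and the bar is the median of the 5 libraries. UCP1 KO replicates 1 to 4 stand above the WT libraries in every panel, UCP1 KO replicate 5 lies near WT, and dKO replicate 4 is the highest dKO library in every panel.

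The promoters of 4 of the 5 members that passed are shown because these genes moved together and because acute-phase promoters are known to be read by C/EBP factors; the RefSeq table (GRCm38.p6) gave no promoter for Hp. Each sequence runs 5′ to 3′ on the strand of the gene from 250 bases before to 50 bases after the start site, and capitals mark matches to TTGCNNAA or its reverse complement, a core that C/EBP factors bind.
Saa3, chr7:46715627-46715926, minus strand: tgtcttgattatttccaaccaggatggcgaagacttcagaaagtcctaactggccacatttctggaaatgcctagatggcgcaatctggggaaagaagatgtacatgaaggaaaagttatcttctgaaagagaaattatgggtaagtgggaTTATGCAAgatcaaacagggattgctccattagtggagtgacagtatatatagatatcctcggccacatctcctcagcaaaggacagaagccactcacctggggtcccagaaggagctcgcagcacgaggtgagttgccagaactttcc
Orm2, chr4:63362199-63362498, plus strand: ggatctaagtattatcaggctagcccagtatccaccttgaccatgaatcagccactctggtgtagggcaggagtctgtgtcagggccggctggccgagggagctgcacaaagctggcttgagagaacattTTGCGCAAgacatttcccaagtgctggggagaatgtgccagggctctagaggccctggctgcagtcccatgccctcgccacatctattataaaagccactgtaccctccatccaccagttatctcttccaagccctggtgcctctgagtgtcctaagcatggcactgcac
Lcn2, chr2:32387690-32387989, minus strand: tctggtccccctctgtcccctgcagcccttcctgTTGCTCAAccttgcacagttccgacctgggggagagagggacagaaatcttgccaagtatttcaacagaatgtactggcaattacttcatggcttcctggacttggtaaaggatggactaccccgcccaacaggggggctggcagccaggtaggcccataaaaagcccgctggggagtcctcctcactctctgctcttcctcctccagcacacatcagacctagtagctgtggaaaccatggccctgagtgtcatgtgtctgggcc
Hpx, chr7:105600067-105600366, minus strand: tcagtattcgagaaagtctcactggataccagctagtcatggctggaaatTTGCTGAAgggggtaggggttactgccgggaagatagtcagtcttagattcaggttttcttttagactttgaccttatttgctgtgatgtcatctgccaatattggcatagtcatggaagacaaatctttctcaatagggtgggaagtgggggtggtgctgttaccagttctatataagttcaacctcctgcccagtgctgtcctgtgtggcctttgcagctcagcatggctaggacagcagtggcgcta

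Each of the 4 promoters held the C/EBP letters, at 99 bases before the start site in Saa3, 120 in Orm2, 216 in Lcn2 and 200 in Hpx. In Orm2 the match is its own reverse complement. Of the 21 list members, 19 had a promoter in the table, and 12 of the 19 held TTGCNNAA, against 10.8% of all 32851 promoters of the same length. A list gene was counted if any of its promoters held the letters, while the share over all is per promoter, so they are unlike measures. The letters TTCNNNGAA, a STAT core, were found in 4 of the 19 (8.3% of all promoters), and those of the NF-kB motif in 3 of the 19 (1.63%). Both strands were searched, no match to one motif overlapped another in the printed sequences, and STAT and NF-kB letters were in none of the 4. These are matches of letters in a window and no measurement of binding.

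Skeletal muscle genes were lower in UCP1 KO than in WT liver. The class was set apart because these RNAs are made by myofibres rather than by any liver cell, and it holds the 184 tested genes with over 100 times more CPM in the series' muscle libraries than in liver, together with 10 muscle markers. Of the 184, 2 were called and 35 were lower at an adjusted p under 0.05, none was higher, and the median log2 fold change was -0.42, with 80.4% of the genes below 0. All 10 markers had an unadjusted p under 0.05 and 9 an adjusted p under 0.05, with a median of -1.68.

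Acta1, skeletal alpha-actin, was at 12.2, 13.4, 16.5, 17.8 and 5.10 CPM in WT and at 4.64, 5.06, 4.82, 3.78 and 2.87 CPM in UCP1 KO (log2 fold change -1.62, standard error 0.28, adjusted p = 0.0118). Ckm, muscle creatine kinase, was at 10.9, 9.95, 11.8, 15 and 3.60 CPM in WT and at 3.45, 4.06, 3.62, 2.61 and 2.20 CPM in UCP1 KO (log2 fold change -1.69, standard error 0.29, adjusted p = 0.0106). Myh4, the fast IIb myosin heavy chain, was at 39.6, 38.6, 45.1, 59.3 and 13.1 CPM in WT and at 13.8, 14.5, 14.4, 8.03 and 7.41 CPM in UCP1 KO (log2 fold change -1.75, adjusted p = 0.0279). In all 3 genes WT replicates 1 to 4 stood above every UCP1 KO library, while WT replicate 5 lay just above or among the UCP1 KO libraries. The calls at 0.01 in this class were Mb, myoglobin, with 1.69, 1.64, 1.91, 2.95 and 0.707 CPM in WT and 0.251 to 0.58 CPM in UCP1 KO (log2 fold change -2.19, standard error 0.32, adjusted p = 0.00414), and Mylk4, a muscle-enriched myosin light chain kinase, with 0.799 to 2.53 CPM in WT and 0.386 to 0.539 CPM in UCP1 KO (log2 fold change -1.90, standard error 0.29, adjusted p = 0.00543).

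The whole marker list behaved as 1 block of genes. Its summed level was 35.5 to 152.5 CPM in WT, 22.2 to 39.1 CPM in UCP1 KO, 18.7 to 38.4 CPM in FGF21 KO and 19.4 to 49.0 CPM in dKO, and each marker was above 0 in all 20 libraries. For 10 of 10 markers WT replicate 5 was the lowest WT library (18.3% of all genes tested), WT replicates 1 to 4 were above every UCP1 KO library (1.43%), and the WT median was above every library of the other genotypes (1.75%). Between dKO and FGF21 KO the median of the list was 0.39, and of the 35 lower genes 2 had the same sign there. For Mb the difference between both backgrounds passed as an interaction at 0.05 (log2 -2.96, standard error 0.46, adjusted p = 0.0468), the only gene of 14407 to do so (0.00694%), while 743 genes had an unadjusted p under 0.05 (5.16%) and DESeq2 called 9 (0.0625%). Without WT replicate 5, 35 muscle genes were called in place of 2. With only WT replicate 5 left in WT, a fit added after seeing the data that has 1 WT library, the log2 fold changes of Acta1 and Ckm were -0.28 and -0.19. In bulk tissue, fewer muscle fibres or cells in a sample and less RNA per cell cannot be told apart. Where the muscle RNA in these liver libraries came from was not tested.

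With the mean log2 level of the muscle markers as a covariate, 0 genes were called by edgeR in place of 10, and DESeq2 was not run with it. In UCP1 KO this covariate was 0.911 to 1.6, against 1.41 to 3.52 in WT, so it was itself unequal between the genotypes. Under this fit Cacna1a was at a log2 fold change of 3.56 (adjusted p = 0.0482), Klf1 at -2.26 (0.0773), Saa3 at 4.25 (0.159) and Lcn2 at 5.88 (0.0814). Genes of the marker list are part of the covariate, so their own values under this fit say nothing about them.

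**Figure D3:**
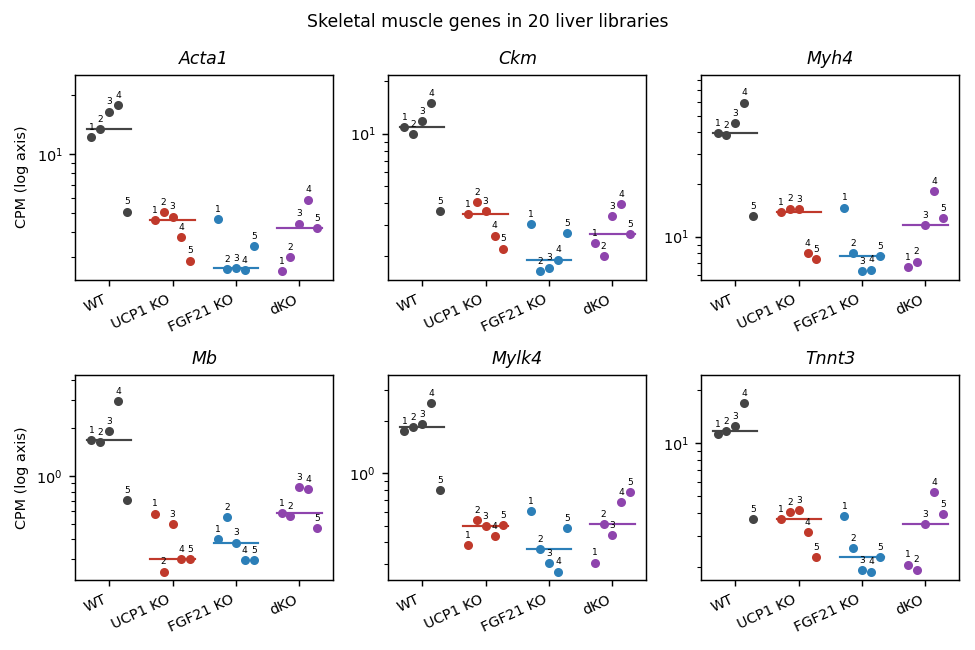
CPM of 6 skeletal muscle genes in the 20 liver libraries, on log axes, by genotype. Each point is 1 library with its replicate number, and the bar is the median of the 5 libraries. WT replicates 1 to 4 lie above every UCP1 KO library in each panel, WT replicate 5 lies near the other genotypes, and FGF21 KO and dKO lie near UCP1 KO.

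Genes near Ucp1 gave 6 of the 10 calls at 0.01. Of 117 tested genes that start within 10 Mb of Ucp1, 2 were called higher and 4 lower. At 0.05, 11 passed (6 higher, 5 lower), which is 9.4%, against 0.618% of all genes tested. The libraries of 19 did not overlap (16.2%, against 2.07% of all genes tested), while the median log2 fold change of the class was -0.01. On the rest of chromosome 8, with skeletal muscle genes such as Acta1 left out, 4 of 615 genes passed at 0.05. All 11 genes lay on the downstream side, starting 0.281 to 2.55 Mb from the start of Ucp1. In the 3 Mb on that side 11 of 62 tested genes passed, against 0 of 27 in the following 7 Mb and 0 of 27 on the upstream side, Ucp1 itself aside. Every UCP1 KO library carries the targeted allele on this chromosome, so the loss of UCP1 and what lies on the chromosome beside the allele cannot be told apart in this comparison.

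Cacna1a (chromosome 8, 84338631 to 84640251), the pore subunit of the P/Q-type calcium channel of neurons, was at 0.268, 0.357, 0.683, 0.319 and 0.184 CPM in WT and at 3.28, 2.55, 2.23, 3.81 and 3.74 CPM in UCP1 KO. The groups were far apart and the gene had the smallest p of the comparison (log2 fold change 3.09, standard error 0.36, adjusted p = 0.000524). Klf1 (84901982 to 84905291), the erythroid Krüppel-like factor, was at 1.72, 2.23, 1.62, 2.23 and 1.75 CPM in WT and at 0.515, 0.431, 0.332, 0.468 and 0.467 CPM in UCP1 KO (log2 fold change -2.10, standard error 0.28, adjusted p = 0.00216). The groups again did not overlap, while of the 4 tested erythroid markers 0 passed at 0.05 by edgeR, 2 had an unadjusted p under 0.05 and DESeq2 called 0.

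Several enzymes of metabolism lie in the same stretch. Gpt2 (85492576 to 85528902), the mitochondrial alanine aminotransferase, was at 387, 351, 385, 454 and 455 CPM in WT and at 261, 227, 244, 266 and 171 CPM in UCP1 KO (log2 fold change -0.80, standard error 0.11, adjusted p = 0.00304). Mri1 (84250576 to 84257324), which isomerises methylthioribose phosphate in the methionine salvage pathway, was at 11.5 to 13.2 CPM in WT and at 3.99 to 6.48 CPM in UCP1 KO (log2 fold change -1.15, standard error 0.19, adjusted p = 0.00869). Dhps (85071486 to 85075162), deoxyhypusine synthase, which modifies the translation factor eIF5A, was at 6.66 to 8.34 CPM in WT and at 3.90 to 5.07 CPM in UCP1 KO (log2 fold change -0.78, standard error 0.13, adjusted p = 0.00869). None of these overlapped between the groups, and the calls of Mri1 and Dhps were each lost in 15 of the 20 fits without 1 library. The end of Dhps overlaps the start of Wdr83 (85075035 to 85080746), so reads in the shared stretch are uncertain. The uncharacterised gene Gm38426 (84913335 to 84922915) was at 4.84 to 7.39 CPM in WT and at 9.19 to 13.6 CPM in UCP1 KO (log2 fold change 0.81, standard error 0.13, adjusted p = 0.00975), and its call was lost in 17 of the 20 fits that left out 1 library.

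Among those that passed at the wider threshold were Tecr, a reductase of very long chain fatty acid synthesis (log2 fold change 0.62, adjusted p = 0.0282), Gipc1, an adaptor of vesicle trafficking (0.76, 0.0155), Calr, the ER chaperone calreticulin (0.47, 0.0431), and Phkb, a subunit of phosphorylase kinase (0.37, 0.0425). Of these, Tecr, Gipc1 and Calr did not overlap between the groups, and Phkb did, with 29.1 to 35.8 CPM in WT and 34.1 to 44.5 CPM in UCP1 KO. In these data the lower genes of the stretch thus included 3 enzymes and the higher genes a calcium channel, an adaptor, a chaperone and 2 enzymes of lipid and glycogen metabolism.

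The same genes were also compared between mice that all lacked FGF21. Between dKO and FGF21 KO liver 1 gene was called (0.00694% of 14407), 3 passed at 0.05 (0.0208%) and 1.09% did not overlap, and the call was Klf1 (log2 fold change -1.92, standard error 0.27). In 17 of the 20 fits that left out 1 library no gene was called. DESeq2 called 13 genes there (0.0902%), and 973 genes had an unadjusted p under 0.05 (6.75%). Of the 11 genes, Klf1 and Cacna1a (adjusted p = 0.0152) passed at 0.05 there and the other 9 did not. All 11 had the same sign as in UCP1 KO against WT, 10 of them with an unadjusted p under 0.05. Cacna1a was at 2.24 (standard error 0.34), Mri1 at -0.89 (0.18), Dhps at -0.63 (0.12) and Gpt2 at -0.56 (0.11), each nearer 0 than against WT, with all 5 dKO libraries, and none of these differences passed as an interaction (adjusted p = 0.948 for Cacna1a and 0.953 for Gpt2). In dKO replicate 2 several of these genes stood with FGF21 KO, so that in this stretch the library went against its label, and its genotype was not tested. Mri1 was at 12.6 CPM there against 5.23 to 6.55 CPM in the other dKO libraries and 11.2 to 14.5 CPM in FGF21 KO, and Cacna1a was at 0.708 CPM against 2.56 to 3.54 and 0.432 to 0.656 CPM. For 8 of the 11 genes dKO replicate 2 was nearer the FGF21 KO mean than the mean of the other 4 dKO libraries. Without it, 7 of the 11 genes passed at 0.05 between dKO and FGF21 KO, with Cacna1a at 2.49, Klf1 at -2.22, Mri1 at -1.18, Dhps at -0.77 and Gpt2 at -0.65. In that fit 5 genes were called in place of 1, and 17 between UCP1 KO and WT in place of 10.

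In muscle, the second tissue compared, 4 of 15114 genes were called (0.0265%), and all 4 lay in this stretch (Gm38426, Ccdc130, Wdr83 and Wdr83os). DESeq2 called 26 genes there (0.172%), and 9.81% had an unadjusted p under 0.05. Of the 11 liver genes 10 were tested in muscle, 9 had the same sign and 7 of these an unadjusted p under 0.05. Gm38426 was at 0.553 to 0.881 CPM in WT muscle and 1.80 to 3.15 CPM in UCP1 KO muscle (log2 fold change 1.79, standard error 0.21, adjusted p = 0.00025). In muscle Cacna1a was at 1.88 to 4.58 CPM and 4.49 to 5.81 CPM (0.72, standard error 0.18, adjusted p = 0.178). The liver and muscle libraries may come from the same mice, so these are not independent animals.

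**Figure D4:**
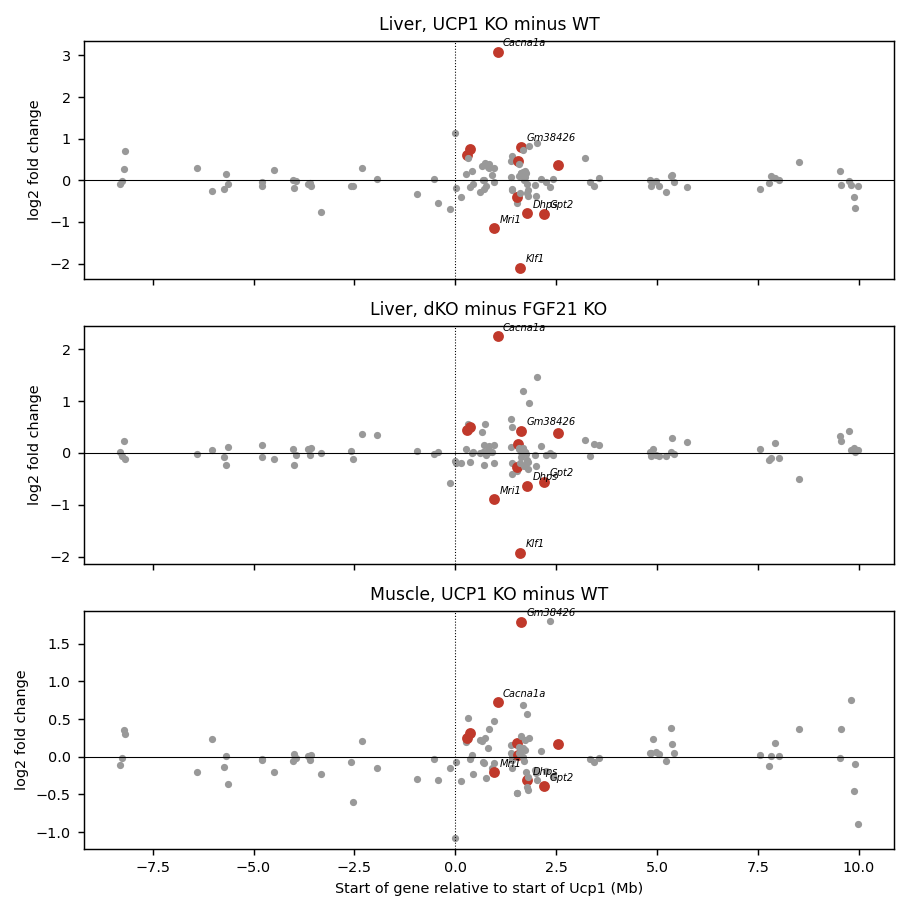
Log2 fold changes of genes starting within 10 Mb of Ucp1 against their distance from the start of Ucp1 in Mb, in liver UCP1 KO minus WT (top), liver dKO minus FGF21 KO (middle) and muscle UCP1 KO minus WT (bottom). Red points are the 11 genes with an adjusted p under 0.05 in liver UCP1 KO against WT, the same in every panel, with the 6 called at 0.01 named, and grey points the other genes tested. The red points lie between 0.281 and 2.55 Mb downstream, and their signs in the middle panel are those of the top panel.

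Outside both classes, 33 genes were higher and 10 lower at an adjusted p under 0.05, of 14106 tested. These counts include genes without a RefSeq position, among them the transcripts AK157878 and AK154275, whose distance from Ucp1 is unknown. Ccdc120 (chromosome X, 7731714 to 7741324) was at 0.832, 0.804, 0.683, 0.81 and 0.738 CPM in WT and at 1.67, 1.90, 1.43, 1.64 and 2.07 CPM in UCP1 KO, without overlap (log2 fold change 1.17, standard error 0.17, adjusted p = 0.00304). Its log2 fold change of dKO over FGF21 KO was 0.90, without overlap (standard error 0.16, adjusted p = 0.0712). Mpp1, a membrane scaffold of the erythrocyte and other cells, was at 26.9 to 30.7 CPM in WT and 33.2 to 48.4 CPM in UCP1 KO (0.55, standard error 0.09, adjusted p = 0.0104). Gpnmb, a glycoprotein of lysosome-rich macrophages, was at 0.0894 to 0.246 CPM in WT and 0.386 to 1.24 CPM in UCP1 KO (2.45, standard error 0.41, adjusted p = 0.0104). Both did not overlap between UCP1 KO and WT, and between dKO and FGF21 KO they were at 0.10 and 0.53 with overlap.

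The other higher genes with small p were of mixed function. Ifitm2, an interferon-inducible membrane protein gene, was at 77.8 to 92.2 CPM in WT and 121 to 180 CPM in UCP1 KO (0.80, standard error 0.14, adjusted p = 0.0155), while of 26 interferon response and antigen presentation genes 0 passed at 0.05 by edgeR, 1 had an unadjusted p under 0.05 and DESeq2 called 0. Esco2, the cohesin acetyltransferase of S phase, was at 0.399 to 0.685 CPM in WT and 0.754 to 2.44 CPM in UCP1 KO (1.54, standard error 0.29, adjusted p = 0.0219). Neither gene overlapped between the groups. Eid1 (0.55) and the transcript AK157878 (0.73) passed as well, with adjusted p = 0.0213 and 0.0197.

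The lower genes with small p were of mixed function. Ces2a, a carboxylesterase, was at 243, 220, 251, 244 and 288 CPM in WT and at 147, 189, 154, 188 and 150 CPM in UCP1 KO, without overlap (log2 fold change -0.59, standard error 0.11, adjusted p = 0.0213). Sult1b1, a cytosolic sulfotransferase, was at 30.3 to 48.5 CPM in WT and 23.7 to 31.3 CPM in UCP1 KO (-0.58, standard error 0.12, adjusted p = 0.0282). Abhd5, the coactivator of adipose triglyceride lipase on lipid droplets, was at 42.0 to 69.9 CPM in WT and 30.5 to 42.4 CPM in UCP1 KO (-0.58, standard error 0.13, adjusted p = 0.0369). For Sult1b1 and Abhd5 the highest UCP1 KO library passed the lowest WT library, so the groups overlapped at the edge. Nat8f7, an N-acetyltransferase family gene, had 43, 18, 32, 25 and 10 counts in WT and 0, 3, 1, 0 and 1 in UCP1 KO (adjusted p = 0.0425), so its fold rests on very few reads.

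Other lower genes were Mfsd4b1 (-0.49), Sdr42e1 (-0.54), Adgrv1 (-0.96) and the transcript AK154275 (-0.96), with adjusted p between 0.0407 and 0.0463. For AK154275 the log2 fold change of dKO over FGF21 KO was -1.02, without overlap (standard error 0.21, adjusted p = 0.156). Just outside the threshold were Acsl1, which activates long-chain fatty acids (-0.45, adjusted p = 0.0522), Shpk (-0.27, 0.0554), and Slc10a1, the main bile acid uptake carrier of hepatocytes, with 759 to 883 CPM in WT and 583 to 689 CPM in UCP1 KO (-0.40, 0.0596). Of the 33 higher genes 31 had the same sign between dKO and FGF21 KO and 9 of these an unadjusted p under 0.05, with medians of 0.80 and 0.22. Of the 10 lower genes 8 had the same sign and 4 of these an unadjusted p under 0.05, with medians of -0.60 and -0.29. Between dKO and FGF21 KO, 6.75% of all genes had an unadjusted p under 0.05, in either direction. The interaction did not pass for any of the 43 genes, and its lowest adjusted p was 0.243, for Fkbp11, named here after its value was seen. Its unadjusted p was under 0.05 for 25 of the 33 higher and 6 of the 10 lower genes, but the genes were chosen on UCP1 KO against WT, which is part of the interaction, so these counts are a description.

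Protein folding genes of the endoplasmic reticulum leaned to the higher side together. Of 20 ER chaperone and unfolded protein response genes, 1 passed at 0.05, Calr, which also lies near Ucp1, and 19 had a positive log2 fold change with a median of 0.47. An unadjusted p under 0.05 in the higher direction was seen in 15 of the 20, against 5.80% of all genes tested, and 6 were higher without overlap, against 1.39%. Dnajb11, an ER cochaperone, was at 88.5 to 112 CPM in WT and 129 to 190 CPM in UCP1 KO (0.58, standard error 0.14, adjusted p = 0.0596), and DESeq2 called it (adjusted p = 0.00809). Hspa5, which encodes BiP, the central chaperone of the ER lumen, was at 631 to 1150 CPM in WT and 1103 to 1736 CPM in UCP1 KO (0.68, standard error 0.22, adjusted p = 0.213). Xbp1, a transcription factor of the unfolded protein response, was at -0.08. Between dKO and FGF21 KO the median of the list was 0.09.

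Of 12 heat shock genes 0 passed at 0.05 by edgeR, DESeq2 called 0 at 0.01 and 3 had an unadjusted p under 0.05, with a median of 0.45. Hspa1b was at 1.62 to 2.95 CPM in WT and at 2.00, 19.3, 12.3, 21.3 and 2.07 CPM in UCP1 KO (2.36, standard error 0.70, adjusted p = 0.152, and 0.0407 by DESeq2), so that 3 UCP1 KO libraries stood apart from the other two. UCP1 KO replicate 1, which was high for the acute-phase genes, was at the WT level for Hspa1b. Of 17 integrated stress response genes, 1 passed, Mthfd2, the mitochondrial folate enzyme, with 1.2 to 1.82 CPM in WT and 1.94 to 4.44 CPM in UCP1 KO (1.00, standard error 0.21, adjusted p = 0.0288). Of the 17, 16 were above 0, with a median of 0.37. An unadjusted p under 0.05 was found for 6 of them, all higher, against 5.80% of all genes tested. Asns, asparagine synthetase, varied from 0.885 to 3.56 CPM in WT and from 1.43 to 26.5 CPM in UCP1 KO (2.63, adjusted p = 0.149), and Atf4, whose regulation is mainly translational, was at 0.18.

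Of 21 cell cycle genes 1 passed at 0.05, Mcm6, a subunit of the replicative helicase, with 2.55 to 4.04 CPM in WT and 4.86 to 8.10 CPM in UCP1 KO (0.91, standard error 0.18, adjusted p = 0.0255). The median was 0.87, 12 of 21 had an unadjusted p under 0.05 in the higher direction (5.80% of all genes), and 6 were higher without overlap (1.39% of all genes). Top2a and Cdk1, which act in mitosis, were at 1.17 and 1.00 (adjusted p = 0.159 and 0.182) with levels of at most 3.68 CPM in any UCP1 KO library, and the inhibitor Cdkn1a was at -1.11 (adjusted p = 0.396). Of 13 stellate cell and matrix genes 1 passed, Col1a1, the alpha-1 chain of type I collagen, with 3.60, 3.34, 4.98, 3.54 and 4.24 CPM in WT and 5.05, 12.9, 12.1, 8.10 and 5.61 CPM in UCP1 KO (1.15, standard error 0.24, adjusted p = 0.0282). In dKO over FGF21 KO Col1a1 was at 0.77 without overlap and did not pass (standard error 0.24, adjusted p = 0.553). Over the 13 genes the median was 0.32 and 9 were above 0. In the higher direction 6 had an unadjusted p under 0.05 (5.80% of all genes), 3 did not overlap (1.39% of all genes) and DESeq2 called 2. Lrat and Pdgfrb, markers of the stellate cells themselves, were at -0.15 and 0.05. Whether the stellate cells differed in number was not tested.

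The metabolic programmes of the liver held few genes that passed. Of 35 PPAR alpha and fatty acid oxidation genes, 0 passed at 0.05 by edgeR and 1 had an unadjusted p under 0.05 (10.2% of all genes tested), with a median of -0.03. Of 24 lipogenic genes 0 passed and 6 had an unadjusted p under 0.05 (1 higher, 5 lower), with 20 below 0 and a median of -0.20, and Thrsp, a carbohydrate-responsive regulator of lipogenesis, was at 271 to 378 CPM in WT and 157 to 222 CPM in UCP1 KO without overlap (-0.74, standard error 0.24, adjusted p = 0.217). Of 24 cholesterol synthesis and uptake genes 0 passed and 22 had a positive sign, with a median of 0.25. Of the cholesterol genes 5 had an unadjusted p under 0.05, and DESeq2 called 0 genes of the 3 lists. The summed level of the lipogenic genes was 14620 to 19460 CPM in WT, and in UCP1 KO it lay below that throughout, at 9105 to 13780 CPM. The sum is set by the most abundant members, and the mean log2 level, which weighs members equally, overlapped (7.35 to 7.61 in WT, against 6.99 to 7.40 in UCP1 KO).

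Bile acid genes (22, median -0.14), glucose metabolism genes (24, median -0.12), apolipoprotein genes (20, median -0.06), respiratory chain genes (35, median -0.03) and clock genes (21, median -0.04) also held 0 genes with an adjusted p under 0.05, and DESeq2 called 1 of them, Slc10a1. Their unadjusted p was under 0.05 for 4, 5, 1, 1 and 1 genes. The same held for 38 cytochrome P450 and xenobiotic genes (median -0.18) and 19 growth hormone and sex-biased genes (median -0.13), with 9 and 3 genes at an unadjusted p under 0.05 and none called by DESeq2. Of all genes tested, 10.2% had an unadjusted p under 0.05. Hsd3b5, a male-biased steroid enzyme, was at 292 to 467 CPM in WT and 207 to 287 CPM in UCP1 KO without overlap (-0.68, standard error 0.19, adjusted p = 0.117), and between dKO and FGF21 KO it was at -0.53 (standard error 0.19, adjusted p = 0.619). Of 32 urea cycle and amino acid genes the 1 that passed was Gpt2, and Cps1, the first enzyme of the urea cycle, was at 4111 to 6428 CPM in WT and 3594 to 6081 CPM in UCP1 KO (-0.31, adjusted p = 0.49). A difference that does not pass with 5 libraries a group is not shown to be absent.

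Markers of other cells held 0 genes with an adjusted p under 0.05, apart from the muscle and matrix genes described above. Of 12 Kupffer cell and macrophage markers 0 passed (median 0.06), and Marco was high in 1 UCP1 KO library (64.0 CPM in replicate 4) and 1 FGF21 KO library (102 CPM in replicate 4) against 1.6 to 20.2 CPM elsewhere. Of 8 lymphocyte, 8 sinusoidal endothelial, 6 cholangiocyte and 7 adipocyte markers 0 passed, with medians of -0.23, -0.25, 0.15 and 0.17. Of 8 pancreatic acinar markers 2 were tested and 0 passed. All 8 sinusoidal endothelial markers were below 0, and all 4 tested erythroid markers above it, with a median of 0.74. By DESeq2 none of these lists had a call, and at an unadjusted p under 0.05 they held 0 macrophage, 2 lymphocyte, 1 endothelial, 1 cholangiocyte, 0 adipocyte, 1 acinar and 2 erythroid genes. Such a p was found for 10.2% of all genes tested.

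**Figure D5:**
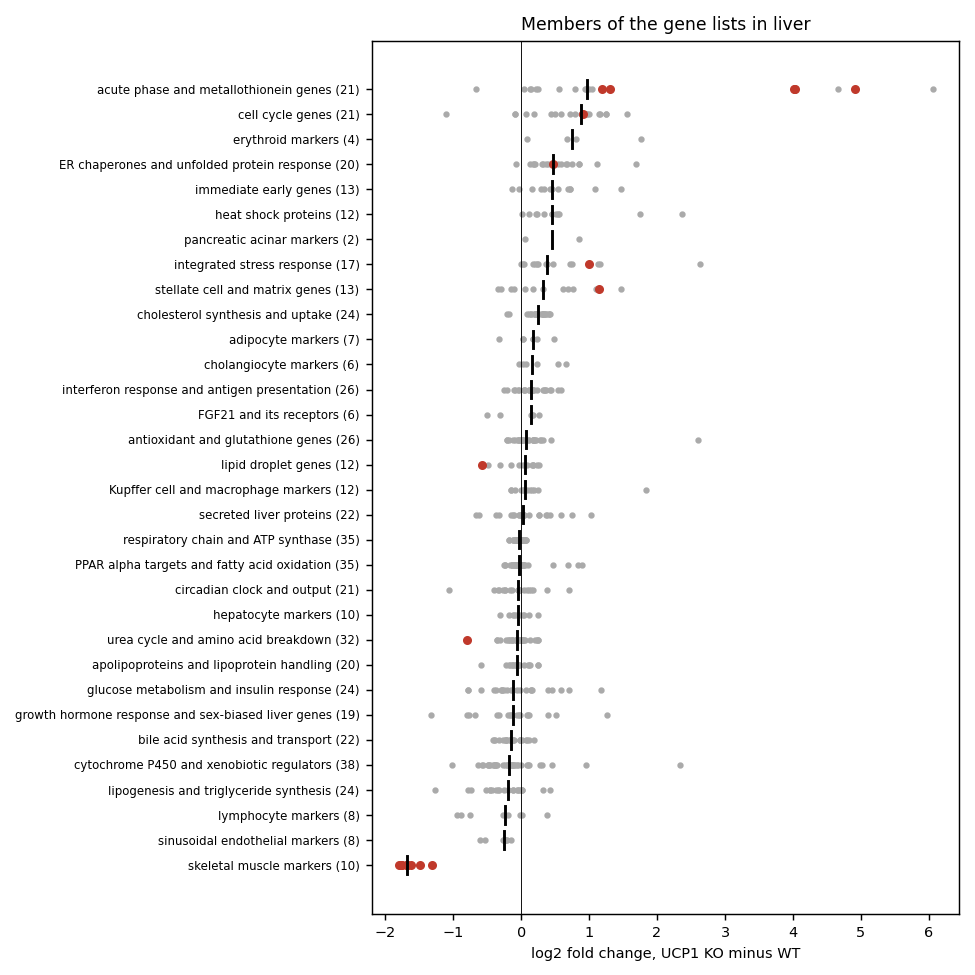
Log2 fold changes in liver of UCP1 KO over WT for the members of 32 gene lists, ordered by list median. Each point is a tested gene, red where its adjusted p is under 0.05, the black bar is the median of the list and the number in brackets counts the tested members. The acute-phase list has the highest median (0.97) and the skeletal muscle list the lowest (-1.68), and most lists lie near 0.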

How the data were processed

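Liver RNA of 20 mice (5 each of WT, UCP1 KO, FGF21 KO and dKO) was poly(A)-selected and sequenced as stranded paired-end libraries. Per the labels and the study's methods, the authors aligned reads with STAR in two-pass mode to mm10 (GRCm38) and counted them on UCSC known genes with HTSeq; the deposited values are raw read counts per gene, without normalization. Whether counting used the strand is not given in the sources used here, so overlapping genes may share reads. The 1 row without a gene name held 0 to 6 reads per library and was left out.

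From these counts, genes with a maximum above 15, a sum above 75 and at most 10 of the 20 libraries at 0 were kept, as in the study. Counts were scaled with TMM factors and fitted with edgeR's quasi-likelihood model (version 4.0.16, R 4.3.3), with all 20 liver libraries sharing 1 estimate of spread and no covariate. P-values were adjusted by Benjamini-Hochberg over all 14407 genes and called under 0.01. DESeq2, the study's own tool, served as a second method (version 1.42.0). Standard errors are those implied by the fold change and its F statistic. Exact two-sided permutation tests used log2 CPM with a prior count of 2. List scores are means of log2 of CPM plus 0.1. Positions are RefSeq on GRCm38, matched by symbol for 13564 genes, and genes without a position were counted as outside the window around Ucp1. The labels do not state that libraries are separate animals, and the study describes 5 mice a group. The edgeR p-values set a group difference against the spread between libraries of a genotype, estimated over all 20 libraries of the tissue.

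The members, lists and classes were chosen with earlier results of these data known. Genes were named if called, if among the 12 smallest p of a direction outside the muscle and Ucp1 classes (uncharacterised names passed over), if a list's smallest p or under 0.05 in a list, if FGF21 signalling genes or Ucp1, if near Ucp1 and passing in a compared contrast, or if Acta1, Ckm or Myh4. Some genes that meet this rule are not reported here. Other members of the lists, such as Saa1, Hspa5, Atf4 and Alb, were chosen after their values were seen. Alternatives were DESeq2, RLE factors, no filter, the 10 libraries alone, the muscle score as covariate, muscle genes removed, a threshold of 0.05 and leaving out each library; thinning to the smallest total and leaving out WT replicates 1 to 4 together were added after seeing the data. On data simulated for UCP1 KO against WT (200 changed genes of 14407), edgeR recovered 91% of 4-fold and 72% of 2-fold changes and made 2 wrong calls. Genes were drawn independently there, without shifts shared across a library, so these shares may not hold for the measured libraries.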

Additional observations from a re-analysis of the deposited data

Results flagged for a closer look

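Among 164 pairs of a named gene and a group of 5 libraries, 13 held a library whose gap to its nearest neighbour took more than 0.71 of the group's range on the log2 scale, the limit for 5 samples. Chance gives this in about 1 in 20 groups. For skeletal muscle genes the library was WT replicate 5, with Ckm at 3.60 CPM against 9.95 to 15 in the other WT libraries, Myh4 at 13.1 against 38.6 to 59.3, Tnnt3 at 3.72 against 11.2 to 16.7, Tnni2 at 1.45 against 4.91 to 6.85, and Pvalb at 2.74 against 7 to 9.85. The same library had the lowest Gipc1, at 5.01 CPM against 6.21 to 6.69. Of 64 pairs of a list score and a group, 2 met this limit. The skeletal muscle score was 1.41 in WT replicate 5 against 2.98 to 3.52, and the apolipoprotein score was 9.06 in UCP1 KO replicate 1 against 9.28 to 9.37.

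In UCP1 KO replicate 5, Lcn2 was at 5.17 CPM against 110 to 209 in the other UCP1 KO libraries, and Phkb at 34.1 against 42.6 to 44.5. Eid1 was at 10.7 CPM in UCP1 KO replicate 2 against 8.69 to 8.91, and Spp1 at 36.0 in UCP1 KO replicate 1 against 57.9 to 60.8. In WT replicate 2, Acsl1 was at 1030 CPM against 1320 to 1410 and Cps1 at 4110 against 6050 to 6430, and in WT replicate 4, Klf6 was at 8.08 against 10.1 to 10.7. The part of these single libraries in the results was not tested beyond leaving each out.

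Mb belongs to the skeletal muscle genes that were high in WT replicates 1 to 4. Its difference at UCP1 loss was unequal between mice with and without FGF21, by -2.96 on the log2 scale (edgeR interaction, adjusted p = 0.0468). Mb was at 1.69, 1.64, 1.91, 2.95 and 0.707 CPM in WT, 0.251 to 0.58 CPM in UCP1 KO, 0.295 to 0.551 CPM in FGF21 KO and 0.47 to 0.854 CPM in dKO, and its log2 fold change of dKO over FGF21 KO was 0.76. Of the 35 muscle genes lower in UCP1 KO at 0.05, 34 had an unadjusted interaction p under 0.05, and the part of muscle RNA in the WT libraries was not tested.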

How the results depend on the processing

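In the liver of UCP1 KO against WT, 10 genes were called (4 higher, 6 lower; 2 muscle, 6 near Ucp1, 2 other). At an adjusted p under 0.05 these were 89 (39, 50; 35, 11, 43), and by DESeq2 112 (59, 53; 33, 11, 68). With only the UCP1 KO and WT libraries they were 3 (1, 2; 0, 3, 0), and with muscle genes taken out 4 (2, 2; 0, 3, 1). With the muscle score as covariate, and with WT replicates 1 to 4 left out together, all of these counts were 0. With no filter on low counts, 5 muscle and 4 other genes were called, and with counts thinned to the smallest total 1 muscle gene; these last fits with thinning and without 4 WT libraries were chosen after seeing the data. RLE factors changed no count by over 1.5 times. Between dKO and FGF21 KO the count of 1 became 3 at 0.05, 13 by DESeq2, 2 without a filter and 0 with the covariate, and the interaction count of 0 became 1 at 0.05 and 9 by DESeq2. In muscle the count of 4 became 11 at 0.05 and 26 by DESeq2.

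Leaving out each library in turn gave 1 to 46 calls (1 to 14 higher, 0 to 40 lower), with 0 to 35 muscle genes, 1 to 7 near Ucp1 and 0 to 12 others; at 0.05 there were 13 to 161. It gave 0 to 5 calls between dKO and FGF21 KO (0 in 17 of the 20 fits), 0 to 5 for the interaction and 2 to 6 in muscle. The total moved by over 1.5 times without WT replicate 1 (3), 3 (3), 4 (1) or 5 (46), UCP1 KO replicate 2 (1), 3 (4) or 4 (4), FGF21 KO replicate 1, 3 or 4 (6 each), and dKO replicate 2 (17), 3 (6) or 4 (24). The cause was not tested. Cacna1a kept its call without any single library, while Gm38426 lost its call in 17 of the 20 fits, and Saa3, Mri1 and Dhps in 15 each.

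Signs turned with the muscle score as covariate for Myh1 (0.10), Tnnt3 (0.00078), Tnni2 (0.12), Mylpf (0.11), Pvalb (0.12) and Fgfr2 (-0.11), of which all but Fgfr2 are members of that score, so their values near 0 follow from the fit. They turned without WT replicates 1 to 4 for Cd3e (0.0545), Myh1 (0.56), Tnni2 (0.0621) and Fgfr2 (-0.0688), and without UCP1 KO replicate 1 for Fgfr1 (-0.12, with 0.28 the highest value without 1 library). No paired analysis was possible because the labels give the libraries no replicate numbers; the numbers used here only name them. Low levels, as for Nat8f7, limit precision.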
